A study of Mus musculus with 15 samples.

Results

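The genes described here are 10 components of epithelial cell junctions, chosen by name from the deposited RNA-seq matrix of 55359 genes: the claudins Cldn3, Cldn4, Cldn7 and Cldn18, occludin (Ocln), the desmosomal cadherin Dsg2, and the desmosome plaque genes Jup, Pkp1, Pkp3 and Dsp. All 10 were found as rows of the matrix. They were read in 15 mouse samples, 3 per group. 46LCNEC is a cell line from a large cell neuroendocrine carcinoma (LCNEC) of the lung that arose in a QKO mouse infected through the trachea with Ad-CMVcre, an adenovirus that drives Cre in any infected cell, and it grew as an adherent monolayer. 57SCLC is a line from a small cell lung carcinoma (SCLC) of a QKO mouse infected with Ad-K5cre, which drives Cre in cells that use the keratin 5 promoter, and it grew as floating aggregates. QKO mice carry engineered alleles of tumor suppressors, among them floxed Rb1 and Trp53 and a null Rbl1 gene, so both lines come from mice of the same genotype. The lines differ in Cre promoter, tumor type, growth form and passage number in culture at once. The groups are 46LCNEC_cell (dishes A, B and C), 57SCLC_cell (flasks A, B and C), 46LCNEC_allo and 57SCLC_allo (3 subcutaneous tumors each, grown from the same line in immunocompetent QKO mice) and Lung (normal lung of 3 littermates of the host mice). Each tumor type is represented by 1 line, so replicates measure the spread between cultures or tumors of that line.

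Tight junctions seal the space between neighboring epithelial cells near their apical side. Claudins span the membrane, join across the gap and set which ions pass, while occludin strengthens and regulates the seal. Desmosomes are the spot-like junctions that hold cells together against strain. In them, desmogleins such as Dsg2 and desmocollins reach across the gap, plakoglobin (Jup) and plakophilins (Pkp1 to Pkp4) form the plaque inside the membrane, and desmoplakin (Dsp) ties that plaque to the keratin filaments. In the lung, Cldn18 is known for the alveolar epithelium, while Cldn3, Cldn4 and Cldn7 are found in many epithelia.

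The RefSeq promoter table, in build GRCm38.p6, held 10 start sites for 7 of these genes, and none was listed for Pkp1, Pkp3 and Dsg2. Since most of the genes moved together between the lines, the 250 bases before each start were searched for 3 motifs. The first was the E-box that Zeb and Snail repressors can bind, written CACCTG on 1 strand and read as CAGGTG on the opposite strand. The second was the GC box, written GGGCGG on 1 strand and read as CCGCCC on the opposite strand. The last was the motif of Grainyhead-like factors, written AACCNGTT on 1 strand and read as AACNGGTT on the opposite strand. The E-box was found in 3 of the 10 windows, from Cldn4, Cldn7 and Ocln, against 17.2% of all 32851 windows in the table. The GC box was found in 7 of the 10, against 32.7% of all windows, and the Grainyhead-like motif in 0 of them, against 1.79%. The searched letters do not overlap one another. The following are shown 5′ to 3′ on the gene's strand with matches in capitals. They are chosen because Cldn3, Cldn4 and Dsp differed widely between the lines and Cldn18 was high in Lung alone. Of the 2 windows of Cldn18, 1 is shown. The stretch of Dsp ends where its annotated exons begin.

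Cldn3, chr5:134985964-134986213 (+): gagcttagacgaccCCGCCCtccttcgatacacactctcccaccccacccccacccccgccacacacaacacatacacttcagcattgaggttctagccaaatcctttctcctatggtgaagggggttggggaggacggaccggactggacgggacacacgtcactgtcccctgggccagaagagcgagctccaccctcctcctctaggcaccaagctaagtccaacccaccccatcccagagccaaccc
Cldn4, chr5:134946935-134947184 (-): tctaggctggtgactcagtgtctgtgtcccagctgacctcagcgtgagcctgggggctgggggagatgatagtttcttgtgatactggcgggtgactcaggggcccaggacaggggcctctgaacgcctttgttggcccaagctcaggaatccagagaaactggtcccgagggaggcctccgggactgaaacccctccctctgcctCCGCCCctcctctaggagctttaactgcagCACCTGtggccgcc
Dsp, chr13:38151044-38151254 (+): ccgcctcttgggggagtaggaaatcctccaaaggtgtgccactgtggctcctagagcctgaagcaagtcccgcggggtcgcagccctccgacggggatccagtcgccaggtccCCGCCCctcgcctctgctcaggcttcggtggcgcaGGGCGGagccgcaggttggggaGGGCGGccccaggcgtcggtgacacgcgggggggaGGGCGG
Cldn18, chr9:99717268-99717517 (-): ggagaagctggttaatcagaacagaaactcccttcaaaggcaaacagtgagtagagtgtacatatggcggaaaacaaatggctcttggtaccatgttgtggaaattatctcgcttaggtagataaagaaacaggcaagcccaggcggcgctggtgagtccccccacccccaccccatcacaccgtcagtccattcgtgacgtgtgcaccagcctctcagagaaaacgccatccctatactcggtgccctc

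The Cldn4 stretch holds an E-box that begins 14 bases before the start and a GC box 44 bases before it. The Dsp stretch holds 4 GC boxes, while the Cldn18 stretch holds none of the motifs. GC content was 52% in the Cldn18 stretch, 60.8% in that of Cldn3, 62% in that of Cldn4 and 72% in that of Dsp. The downstream start of Cldn7 and that of Ocln each have 2 E-boxes, shown here with 12 bases on either side. The windows of these starts hold annotated exons, so their E-boxes, which entered the count of windows above, may lie in transcribed sequence.

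Cldn7, chr11:69965312-69965341 (+): tttcttcctcttCACCTGgacgaggagggg
Cldn7, chr11:69965352-69965381 (+): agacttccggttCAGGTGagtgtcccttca
Ocln, chr13:100552694-100552723 (-): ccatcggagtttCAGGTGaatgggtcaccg
Ocln, chr13:100552549-100552578 (-): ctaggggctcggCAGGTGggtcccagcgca

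These matches describe the letters of the reference. Binding was not measured in these samples.

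Reads counted per sample ranged from 9480244 to 44876572, with a median of 26502525. Values are normalized counts, which are the reads counted per gene divided by the size factor of the sample, and are given as mean ± SD with n = 3 per group. A value of at most 3 reads in a sample was taken as the floor of detection, which covers counting error only. The test was limma's, run on the log2 of the normalized count plus 1, and a gene was called when its Benjamini-Hochberg adjusted p was at most 0.01 and its fold change at least 2. On this scale the change of genes with low counts is understated. In bulk RNA, fewer cells of a type and less RNA per cell cannot be told apart. Neuroendocrine markers (Chga, Chgb, Syp, Scg3 and Insm1) summed to between 34315 and 57551 normalized counts in the 57SCLC samples, to between 16.9 and 45.4 in the 46LCNEC samples and to between 183 and 207 in Lung, so the samples labelled LCNEC had little of these transcripts. Flask C of 57SCLC_cell stood apart from flasks A and B, with a chi-square per degree of freedom of 127 to 144 against 2.80 between A and B. The 3 tumors of 46LCNEC_allo also differed widely from each other, by 92.6 to 133.

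Cldn3 was abundant in 57SCLC and in Lung and close to absent in 46LCNEC. Its normalized counts were 10961, 10797 and 8228 in the flasks of 57SCLC_cell, and 9408, 9248 and 7394 in the 57SCLC_allo tumors. In Lung they were 6493, 7517 and 8129.9. In 46LCNEC they were 1.88, 1.10 and 0 in the dishes and 19.9, 0 and 2.21 in the tumors, far below all other samples. The reads behind these were 0 to 2 in the dishes and 0 to 15 in the tumors. Cldn3 was at least 3019-fold higher in 57SCLC_cell than in 46LCNEC_cell, where all 3 dishes were at the floor (log2 difference 12.41, standard error 0.37, adjusted p = 3.63e-08, limma). Between the allografts the log2 difference was 11.05 with a standard error of 1.01 (adjusted p = 0.00016, limma). Neither 57SCLC group passed the thresholds against Lung for this gene, and their values overlapped those of Lung in the allografts (log2 difference 0.23, 95% confidence interval -0.06 to 0.52).

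Cldn4, a claudin of many simple epithelia, overlapped between Lung and the 57SCLC tumors. It had 321, 271 and 226 normalized counts in Lung and 287, 377 and 229 in 57SCLC_allo (log2 difference 0.11, 95% confidence interval -0.40 to 0.62). The flasks of 57SCLC_cell had 121, 105 and 40.6, lower than every 57SCLC_allo and Lung sample. In 46LCNEC the dishes had 6.57, 2.21 and 1.54 and the tumors 11.9, 0 and 0. Cldn4 was called lower in 57SCLC_cell than in Lung (log2 difference -1.74, standard error 0.40, adjusted p = 0.00441, limma). That call was lost when any 1 of the Lung samples was left out (adjusted p = 0.0137 to 0.0273) and with all 15 samples in 1 model (adjusted p = 0.0609).

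Cldn7 was higher in 57SCLC than in Lung. It had 5165, 5152 and 3495 normalized counts in the flasks and 4874, 4843 and 4209 in the 57SCLC_allo tumors, against 1132, 1474 and 1320.5 in Lung. The lowest 57SCLC sample, flask C, was above the highest Lung sample. The log2 difference from Lung was 1.80 in 57SCLC_cell (standard error 0.17, adjusted p = 3.03e-05, limma) and 1.83 in 57SCLC_allo (standard error 0.11, adjusted p = 2.99e-06, limma). In 46LCNEC the values were 8.44, 11.04 and 5.38 in the dishes and 7.95, 5.26 and 14.4 in the tumors. These are more than 7 log2 units below Lung, at -7.18 in the dishes (95% confidence interval -7.75 to -6.61) and -7.10 in the tumors (-7.96 to -6.23).

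Cldn18 was high in Lung alone. Lung had 20948, 29283 and 30773 normalized counts. In 46LCNEC_allo it was listed at 0 in all 3 tumors, and in 57SCLC_cell it had 0.545, 0 and 1.04. The 57SCLC_allo tumors had 9.58, 1.42 and 6.81, and the dishes of 46LCNEC_cell had 2.81, 7.73 and 6.15, from 1 to 8 reads each. Cldn18 was thus at least 6795-fold higher in Lung than in 46LCNEC_allo and at least 14923-fold higher than in 57SCLC_cell. The markers of alveolar cells moved with it. The 5 type 1 markers, of which Cldn18 is 1, summed to between 93426 and 125986 normalized counts in Lung and to at most 3161 elsewhere, and type 2 markers to at least 226232 in Lung and at most 72.3 elsewhere.

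Ocln, which regulates the tight junction seal, varied little within Lung and the 57SCLC groups. Its normalized counts were 2795, 2882 and 2897 in 57SCLC_cell, 2284, 2746 and 2367 in 57SCLC_allo, and 1788, 1849 and 1895 in Lung, so the 3 groups did not overlap. The differences from Lung had adjusted p = 4.20e-05 in the cells and 0.0029 in the allografts (limma), but stayed under a 2-fold change (log2 differences 0.63 and 0.41) and were not called. In 46LCNEC the dishes had 0, 2.21 and 1.54 and the tumors 0, 1.05 and 1.11, which is 0 to 2 reads per sample. Ocln was at least 863-fold higher in 57SCLC_cell than in 46LCNEC_cell and at least 621-fold higher in 57SCLC_allo than in 46LCNEC_allo.

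**Figure D1:**
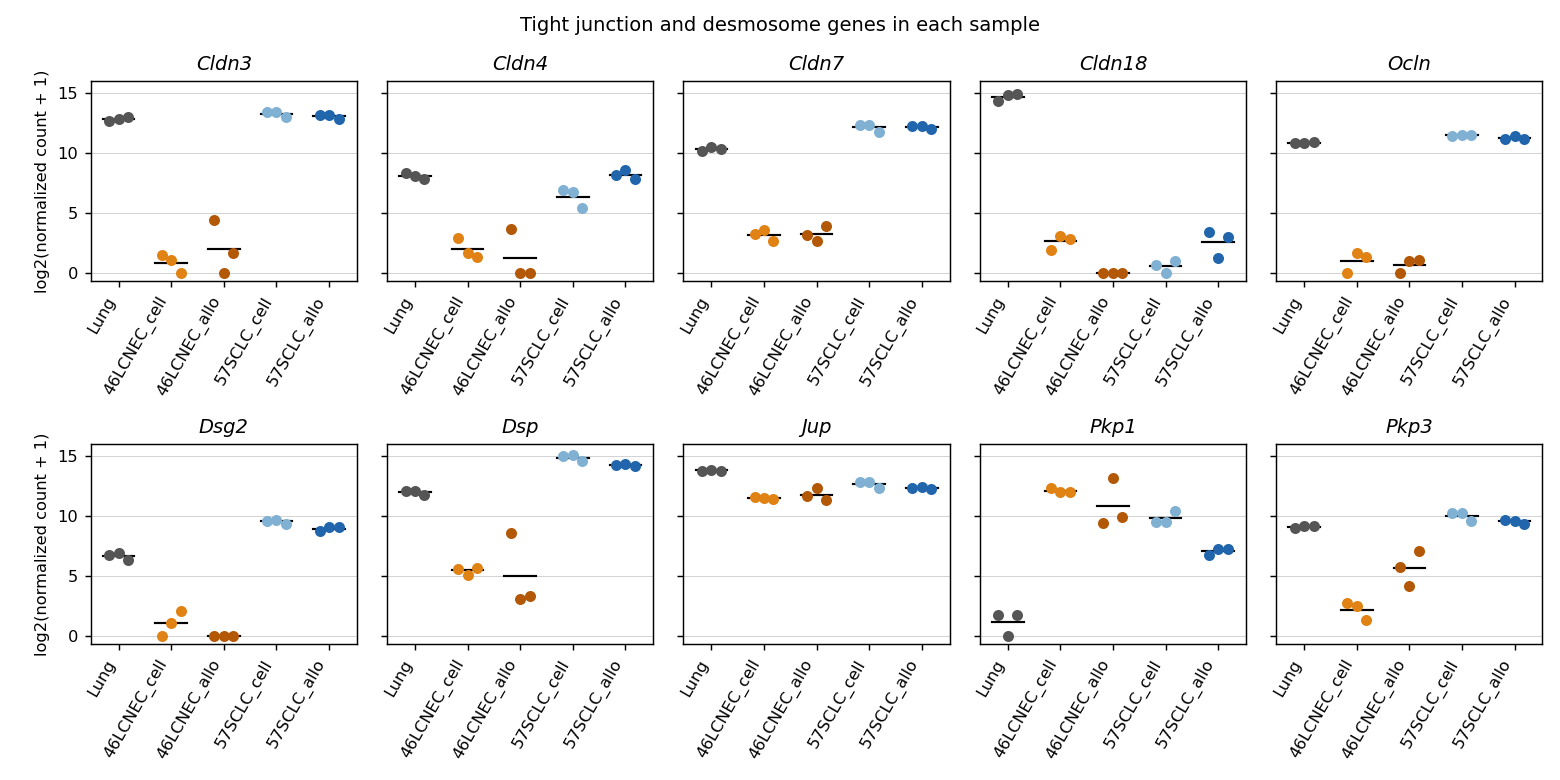
Level of each of the 10 junction genes in the 15 samples, on a log2(normalized count + 1) axis, with 1 point per sample and a line at the group mean of that scale. Cldn3, Cldn4, Cldn7, Ocln, Dsg2, Dsp and Pkp3 are low in both 46LCNEC groups, Cldn18 is high in Lung alone, Jup is high everywhere and Pkp1 is at 0 to 2.34 normalized counts in Lung.

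Among the desmosome genes, Dsg2 followed the same order as Dsp, with 57SCLC_cell above 57SCLC_allo above Lung and no overlap between these 3 groups. Dsg2, the desmoglein of simple epithelia and heart, had 765, 808 and 649 normalized counts in the flasks, 421, 518 and 525 in the 57SCLC_allo tumors and 106, 116 and 78.4 in Lung. It was listed at 0 in all 3 tumors of 46LCNEC_allo and had 0, 1.10 and 3.08 in the dishes. Dsg2 was at least 123-fold higher in 57SCLC_allo than in 46LCNEC_allo and at least 25.2-fold higher in Lung than in 46LCNEC_allo. Against Lung, it rose in both 57SCLC groups, by 2.89 on the log2 scale in the cells (standard error 0.18, adjusted p = 2.16e-06, limma) and 2.29 in the allografts (standard error 0.19, adjusted p = 1.74e-05, limma).

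Dsp, which anchors keratin filaments, was higher in 57SCLC than in any other group. It had 31802, 33248 and 23711 normalized counts in the flasks and 18978, 20795 and 18371 in the 57SCLC_allo tumors, against 4388, 4331 and 3435 in Lung. The log2 difference from Lung was 2.86 in the cells (standard error 0.16) and 2.26 in the allografts (standard error 0.11), with adjusted p = 1.16e-06 and 1.06e-06 (limma). With all 15 samples in 1 model, these adjusted p were 0.0160 and 0.0520. The dishes of 46LCNEC_cell had 46.9, 33.1 and 49.2, so the ratio of the group means between the lines in culture was 687.

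The tumors of 46LCNEC_allo differed from each other in Dsp. Tumor 1 had 375 normalized counts, while tumors 2 and 3 had 7.37 and 8.85. Tumor 1 also had the most Krt14 (1075 normalized counts, against 72.6 and 50.9) and Trp63 (523, against 73.7 and 87.4), both known from basal cells and skin, and more Krt8 (60.9, against 2.11 and 1.11). Of 10 basal and skin markers, 6 were at or under the floor in all 3 tumors, Krt5 at 0, with Flg and Sbsn at 0 in every sample of the study. The 10 summed to 476 to 1917 normalized counts, against 362 to 399.8 in the dishes. The part of other cells in the Dsp of tumor 1 was not tested. Dsp was called lower in 46LCNEC_allo than in Lung (log2 difference -7.00, standard error 1.41, adjusted p = 0.00506, limma). The call was lost in edgeR (adjusted p = 0.0193) and when any 1 of the Lung samples, tumor 2 or tumor 3 was left out (adjusted p = 0.0133 to 0.0239).

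Jup was detected in every sample and had the smallest differences between the lines, both in the cells and in the allografts. It encodes plakoglobin, which desmosomes and adherens junctions share. All 15 samples had between 2567 and 14394 normalized counts. Lung was highest with 13953, 14394 and 13931, followed by 57SCLC_cell with 7318, 7180.0 and 5087 and 57SCLC_allo with 4938, 5524 and 4846. The dishes of 46LCNEC_cell had 2944, 2826 and 2695, and the tumors of 46LCNEC_allo had 3172, 5112 and 2567, so the allografts of both lines overlapped (log2 difference 0.56, 95% confidence interval -0.03 to 1.14, adjusted p = 0.0939, limma). Jup was lower than Lung in all 4 tumor groups, with log2 differences of -2.32 in 46LCNEC_cell and -2.02 in its tumors, and of -1.47 in 57SCLC_allo and -1.13 in the flasks. The last of these fell below a 2-fold change without flask C, at -0.96, and when samples were scaled by library size, at -0.90.

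Heart muscle of the pulmonary veins also uses plakoglobin and desmoplakin. The heart gene Myh6 had 5994 and 3748 normalized counts in Lung 1 and Lung 2 and 91.3 in Lung 3, while Jup was alike in these samples, at 13953, 14394 and 13931. Dsp was lowest in Lung 3. The part of heart muscle in the Lung values of either gene was not tested.

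Pkp1 ran against most of the set between the lines and in 46LCNEC against Lung. This plakophilin is best known from the desmosomes of stratified epithelia such as skin. In Lung it had 2.24, 0 and 2.34 normalized counts, which are at most 3 reads per sample. It had 4999, 4085 and 4098 in the dishes of 46LCNEC_cell, above every 57SCLC sample. The 46LCNEC_allo tumors had 673, 8954 and 966, so that tumor 2 alone exceeded the dishes. The 57SCLC flasks had 703, 700.2 and 1364 and the 57SCLC_allo tumors 105, 150.1 and 149.8.

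Against the floor in Lung, Pkp1 was at least 1251-fold higher in the 46LCNEC dishes, 1005-fold in their tumors, 263-fold in the 57SCLC flasks and 38.5-fold in their tumors, each on the group mean. Without tumor 2 the bound for the 46LCNEC tumors was 233-fold. Between the lines in culture it was lower in 57SCLC (log2 difference -2.32, standard error 0.25, adjusted p = 5.75e-05, limma), though with all 15 samples in 1 model the adjusted p was 0.0109. Between the allografts the log2 difference was -3.74 (standard error 0.92), and its adjusted p of 0.0123 missed the threshold (limma). It passed without tumor 2 of 46LCNEC_allo (log2 difference -2.59, adjusted p = 0.000612) and without tumor 1 (-4.45, 0.00988), as well as in DESeq2 (-4.71, 7.69e-05) and with all 15 samples in 1 model (-3.74, 0.000457). Beside it, the 10 basal and skin markers summed to 476 to 1917 normalized counts in 46LCNEC_allo and 362 to 399.8 in the dishes, against 118 to 150.1 in 57SCLC_allo, 156 to 194 in the flasks and 308 to 451 in Lung. In each 46LCNEC group 6 of the 10 were at or under the floor. Of these, Flg and Sbsn were at 0 in all 15 samples and so cannot tell the groups apart. Krt14 and Trp63 were highest in tumor 1 (1075 and 523), not in tumor 2. Of the 4 tested between the allografts, 3 were called lower and 1 higher in 57SCLC_allo, against 14.2% and 16.1% of all genes. Of 4 tested against Lung in 46LCNEC_cell, 1 was called higher and 2 lower, against 20.6% and 35.0%. In 46LCNEC_allo, 1 of 4 was called higher than Lung and 0 lower, against 13.4% and 22.1%. The part of such cells in the Pkp1 values was not tested.

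Pkp3, the plakophilin found in most epithelia, was higher in 57SCLC and Lung than in 46LCNEC. Its normalized counts were 1196, 1201 and 769.6 in 57SCLC_cell, 819, 766 and 641 in 57SCLC_allo and 516, 574 and 555 in Lung. The dishes of 46LCNEC_cell had 5.63, 4.41 and 1.54, and the tumors of 46LCNEC_allo had 53.0, 16.8 and 129. The tumors thus lay between the dishes and Lung with no overlap on either side. Pkp3 was called lower in 46LCNEC_allo than in Lung (log2 difference -3.45, standard error 0.67, adjusted p = 0.00435, limma), and the call was lost without any 1 of the Lung samples or without tumor 1 (adjusted p = 0.0149 to 0.0207). It was called higher in 57SCLC_allo than in 46LCNEC_allo (3.88, standard error 0.67, adjusted p = 0.0027), and this call was lost without tumor 1 of 46LCNEC_allo (0.0104) or any 1 of the 57SCLC_allo tumors (0.0124 to 0.0160). In 57SCLC_cell the difference from Lung was just under 2-fold (log2 difference 0.92, adjusted p = 0.00178, limma) and passed without flask C (1.13), in edgeR (1.02) and when scaled by library size (1.15).

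Nearly the whole set differed between the lines. In culture, 9 of the 10 genes passed the filter on low counts, and all 9 were called between 57SCLC_cell and 46LCNEC_cell: 8 were higher in 57SCLC_cell, against 23.9% of the 16920 genes tested, and Pkp1 was lower, against 22.2%. Between the allografts 9 were tested and 7 were called higher in 57SCLC_allo, against 16.1% of the genes tested. None was called lower, against 14.2%, and Pkp1 missed the threshold except in the alternatives given above. Cldn18 was too low to be tested in both comparisons. The 9 that were tested include genes that passed the filter only because 57SCLC was high.

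Against Lung, all 10 genes were tested. In 46LCNEC_cell and in 46LCNEC_allo the same 9 were called lower, against 35.0% and 22.1% of all genes tested, and Pkp1 was called higher, against 20.6% and 13.4%. In 57SCLC_cell, Cldn7, Dsp, Dsg2 and Pkp1 were called higher, against 21.1% of genes, and Cldn4, Cldn18 and Jup lower, against 32.7%. In 57SCLC_allo, the same 4 were called higher, against 18.9%, and Cldn18 and Jup lower, against 26.9%. The 10 that were tested include genes that passed the filter only because Lung was high, and Pkp1 passed only because the tumor groups were high. The 4 comparisons share their Lung samples. The median log2 difference from Lung over the claudins and occludin was -10.15 in 46LCNEC_allo and 0.23 in 57SCLC_allo, beside -0.14 and -0.09 over all genes tested.

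**Figure D2:**
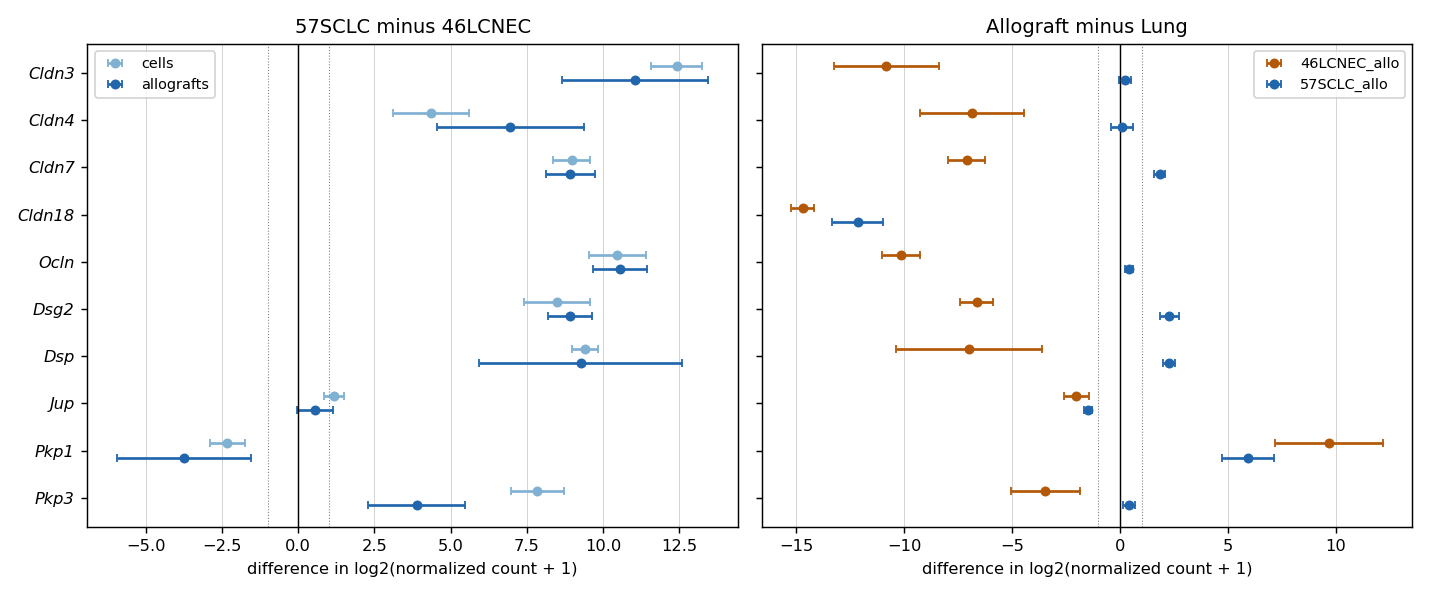
Differences in log2(normalized count + 1) with 95% confidence intervals from limma, between the lines (left, in cells and in allografts) and between each allograft and Lung (right), with dotted lines at a 2-fold change. On the left 8 genes lie to the right of 0 in both settings (Jup's allograft interval reaches -0.03) and Pkp1 lies to the left, and on the right the 46LCNEC_allo points other than Pkp1 lie far below Lung. Cldn18 was not tested on the left.

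The allografts were next compared with the cells of their own line. In 57SCLC, 9 genes were tested between allografts and cells. Cldn4 was called higher in the tumors (log2 difference 1.85, standard error 0.40, adjusted p = 0.00711, limma), against 14.4% of genes, and Pkp1 lower (-2.71, standard error 0.28, adjusted p = 0.000108), against 2.29%. Dsg2 (log2 difference -0.60, adjusted p = 0.00751) and Dsp (-0.60, adjusted p = 0.0137) had lower values in the tumors by less than 2-fold. The Cldn4 call was lost without any 1 of the tumors (adjusted p = 0.0206 to 0.0373), and with all 15 samples in 1 model neither gene was called (adjusted p = 0.0907 for Cldn4 and 0.0110 for Pkp1). Cldn3, Cldn7 and Ocln differed by at most 0.22 in size on the log2 scale.

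In 46LCNEC, only Pkp1, Pkp3, Dsp and Jup passed the filter between allografts and cells. Pkp3 was called higher in the tumors (log2 difference 3.48, standard error 0.76, adjusted p = 0.00723, limma), against 14.4% of genes, and none was called lower, against 8.45%. This Pkp3 call was lost when any 1 of the samples except tumor 2 was left out (adjusted p = 0.0129 to 0.0334). Without tumor 2, Pkp1 was lower in the tumors than in the dishes (log2 difference -2.44, adjusted p = 0.000107), and without tumor 1, Dsp was lower (-2.26, adjusted p = 0.00334).

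The test of whether the line difference itself changed between culture and animal, an interaction over 12 samples, called 1 of 9 genes tested. For Pkp3 the line difference in the allografts minus that in the cells was -3.96 log2 units (standard error 0.82, adjusted p = 0.0029, limma), against 6.78% of genes called in that direction. No gene of the set was called in the other direction, against 10.8%. Without tumor 1 of 46LCNEC_allo, Cldn4 (3.83, adjusted p = 0.00238) and Dsp (1.66, adjusted p = 0.000524) also passed, both with a larger line difference in the allografts.

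The allografts hold host cells as well. Fibroblast markers summed to between 160688 and 349011 normalized counts in 46LCNEC_allo and to between 15419 and 24129 in 57SCLC_allo. Leukocyte markers summed to between 7234 and 12309 and to between 2540 and 4261, respectively. In culture, fibroblast markers were at 20.51 to 25.6 in the flasks and at 20948 to 23548 in the dishes. The sum in the dishes does not stand for the 4 markers alike, as Lum was at or under the floor there. Against Lung, 1 of the 4 was called higher in the dishes and 3 lower, against 20.6% and 35.0% of all genes. Markers of simple epithelium summed to between 123 and 201 in 46LCNEC_allo, 6604 and 7580 in 46LCNEC_cell and 38400 and 42198 in 57SCLC_allo. In the dishes Krt8 was at or under the floor, and 4 of the 5 markers were called lower than Lung, against 35.0% of all genes. Of 4 tested between 46LCNEC_allo and the dishes, 1 was called lower in the tumors, against 8.45%. The part of host cells in the allograft values was not tested.

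To compare levels between genes, normalized counts were divided by the exon length of each gene in kb. On this scale Cldn18 (6059 ± 1188) and Cldn3 (5862 ± 657) were close in Lung, followed by Jup (1586 ± 29.4). In 57SCLC_cell Cldn3 led with 7939 ± 1217, above Dsp (3051 ± 530) and Cldn7 (2179.9 ± 455). In 46LCNEC_cell Pkp1 (875 ± 104) and Jup (318 ± 14.01) led, while each of the others was at most 4.44 per kb.

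Cldn3, Cldn4, Cldn7 and Cldn18 were then set against 17 further claudins by their share of the summed level per kb. In 57SCLC_cell, Cldn3 took 55.1 ± 1.63% and Cldn7 15.1 ± 1.37%, with Cldn6, known from embryonic epithelia, at 23.8 ± 2.12%. In 57SCLC_allo the make-up was much the same, with Cldn3 at 50.3 ± 1.25%, Cldn6 at 23.1 ± 1.85% and Cldn7 at 16.1 ± 0.981%. In Lung, Cldn5, the claudin of endothelium, took 56.8 ± 2.35%, followed by Cldn18 at 19.4 ± 2.01% and Cldn3 at 18.9 ± 0.309%. In 46LCNEC_cell the sum over these 21 claudins was 504 ± 27.4 per kb, against 14374 ± 1814 in 57SCLC_cell. Cldn12 took 56.7 ± 1.16% of the sum in 46LCNEC_cell. In 46LCNEC_allo Cldn5 took 71.6 ± 5.97%. The 5 endothelial markers, of which Cldn5 is 1, summed to between 5546 and 9388 normalized counts in these tumors and to between 348 and 422 in the dishes. They also summed to between 7109 and 7769 in the flasks of 57SCLC_cell, where Cdh5, Kdr and Cldn5 were at or under the floor. The part of endothelium in the Cldn5 values was not tested.

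The plakophilins differed in make-up between the lines. By the same measure, Pkp1 took 57.9 ± 2.21% of the 4 plakophilins in 46LCNEC_cell and 11.1 ± 4.04% in 57SCLC_cell, while Pkp3 took 0.0682 ± 0.0346% and 17.5 ± 4.73%. In Lung, Pkp3 took 20.2 ± 0.181% and Pkp1 0.0423 ± 0.0367%. Pkp4, which is found at adherens junctions as well, took the largest share in Lung and in both 57SCLC groups, from 66.7 ± 1.27% to 70.6 ± 2.03%. In 46LCNEC_allo the share of Pkp1 ran from 30.6% to 81.9% over the 3 tumors.

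**Figure D3:**
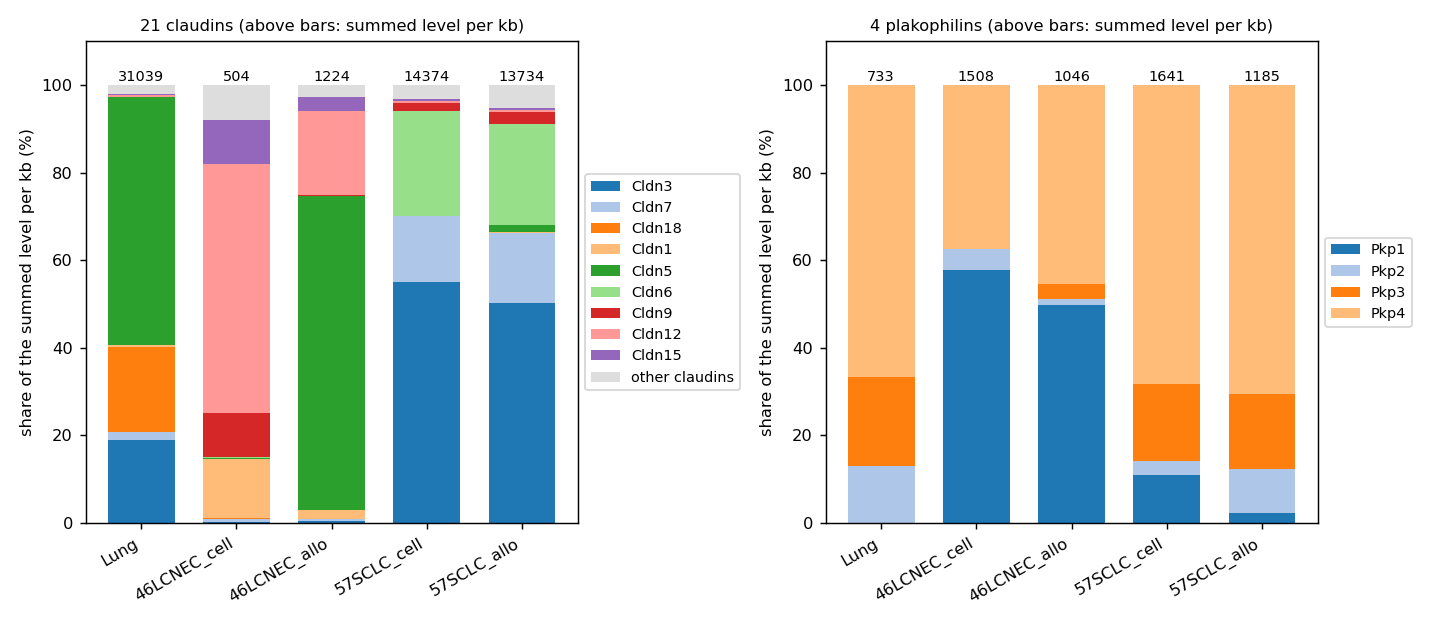
Share of each claudin (left, 21 genes) and plakophilin (right, 4 genes) in the summed level per kb of exon, as the mean of 3 samples per group, with the summed level above each bar. Cldn3, Cldn6 and Cldn7 fill most of the 57SCLC bars, Cldn5 leads in Lung and 46LCNEC_allo, Cldn12 leads in 46LCNEC_cell, and Pkp1 takes its largest shares in the 46LCNEC bars.

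The other genes of these junctions were read from lists. Of 17 other claudins, 10 were tested between the lines in culture, of which 6 were higher in 57SCLC_cell, against 23.9% of all genes, and 2 lower, against 22.2%. Cldn6 had 5855 normalized counts on average in 57SCLC_cell and 2.50 in 46LCNEC_cell, and Cldn23 had 491 and 19.5. Cldn12 was lower in 57SCLC (log2 difference -2.23, adjusted p = 1.25e-07, limma), with 625 against 2921. Between the allografts, 6 of 11 tested were higher in 57SCLC_allo, among them Cldn10 and Cldn11, and 3 lower, against 16.1% and 14.2% of all genes. Cldn6, at most 3.75 in the dishes and 7.74 in the 46LCNEC_allo tumors, passed the filter only because 57SCLC was high. Cldn1, at or under the floor in 57SCLC, passed only because 46LCNEC was high. The median log2 difference of the claudins tested was 2.87 in the cells and 2.32 in the allografts, beside 0.00028 and 0.01 over all genes tested. Cldn8 was at 0 in all 6 of the 46LCNEC samples and averaged 347 in Lung.

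Of 16 other tight junction genes, 10 were higher and 2 lower in 57SCLC_cell than in 46LCNEC_cell, where 23.9% of all genes were higher and 22.2% lower. In the dishes Tjp3, Marveld2 and Marveld3 reached at most 7.73, 8.83 and 9.23, so they passed the filter only because 57SCLC was high. Between the allografts 9 were higher and 1 lower, against 16.1% and 14.2%. Against Lung, 13 of the 16 were lower in 46LCNEC_allo, against 22.1% of all genes. In 46LCNEC_allo, Marveld3 reached at most 9.27 and Crb3 was at or under the floor. Both were tested with these tumors only because 57SCLC_allo or Lung was high. In 57SCLC_allo 2 were higher and 5 lower, near the 18.9% and 26.9% of all genes. The scaffold genes of the plaque were split. Tjp3 (ZO-3) rose by 8.65 log2 units in the cells and 6.98 in the allografts, and the polarity gene Patj by 4.38 and 7.53, as did Pard6b by 1.97 and 4.56. Tjp1 (ZO-1) differed by 0.03 in the cells (adjusted p = 0.728, limma) and by -0.08 in the allografts (adjusted p = 0.699), with means of 3038 to 3256 in all 4 tumor groups and 10841 in Lung. Cgnl1 and the immunoglobulin-type junction gene Jam2 were not higher in 57SCLC. Cgnl1 was lower in the allografts (-2.78) and Jam2 in the cells (-7.32). The polarity gene Pals1 was lower than Lung in both allografts, at -1.46 in 46LCNEC_allo and -1.76 in 57SCLC_allo.

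Of 13 other desmosome genes, 6 were tested between the lines in culture, of which 2 were higher and 1 lower in 57SCLC_cell, near the 23.9% and 22.2% of all genes. Of 6 tested between the allografts, 5 were higher in 57SCLC_allo, against 16.1%. Dsc2 was at or under the floor in 46LCNEC_allo and could pass the filter only through 57SCLC_allo. Evpl, which encodes envoplakin, rose by 6.70 log2 units in the cells and 6.97 in the allografts. Its partner Ppl did not differ beyond the threshold in the cells (-0.23, adjusted p = 0.184, limma) and was higher in 57SCLC_allo (4.08, adjusted p = 0.0075). It averaged 288 normalized counts in the 46LCNEC_allo tumors and 3395 in the dishes. Pkp4 differed by 1.00 in the cells and rose by 1.41 in the allografts. The other desmogleins and the desmocollins Dsc1 and Dsc3 were near 0 in every group.

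The 13 adherens junction genes and Dsg2, Dsp and Jup share the cell's lateral membrane. Of these 13, 8 were higher and 2 lower in 57SCLC_cell, against 23.9% and 22.2% of all genes, and 8 higher and none lower in 57SCLC_allo, against 16.1% and 14.2%. Cdh1, the E-cadherin of epithelia, averaged 20473 normalized counts in 57SCLC_cell and 165 in 46LCNEC_cell, and Epcam 13134 and 21.0. Cdh2, the N-cadherin, averaged 2811 in 46LCNEC_cell and 1884 in 57SCLC_cell, and was called higher than Lung in both allografts (log2 differences 3.69 and 4.78). Cdh3 was higher in 57SCLC in the cells (3.29) and in the allografts (4.99). Nectin4 rose in the cells (4.20) but missed the threshold in the allografts (1.223, adjusted p = 0.0167). Ctnna1 and Ctnnd1, which link cadherins to actin or steady them, were lower in 57SCLC_cell, with log2 differences of -1.18 and -1.27.

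Regulators of epithelial genes moved with the set. Of 10 genes that drive epithelial transcription or splicing, 9 were tested, and 8 were higher in 57SCLC_cell and 9 in 57SCLC_allo than in 46LCNEC, against 23.9% and 16.1% of all genes, with median log2 differences of 6.55 and 7.223. Among those tested, Grhl3, Ovol1 and Ovol2 were at or under the floor in 46LCNEC and passed the filter only because 57SCLC was high. The same holds for Esrp1, which was at or under the floor in 46LCNEC_allo and averaged 2.75 in the dishes. The Grainyhead-like factor Grhl2 averaged 3437 normalized counts in 57SCLC_cell and 35.8 in 46LCNEC_cell, and the splicing factor Esrp1 9882 and 2.75. Grhl1 and Ovol1 were higher as well, by 3.44 and 8.69 log2 units in the cells. Klf5 was an exception in culture, with 0.54 log2 units.

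All 6 repressors of epithelial genes (Zeb1, Zeb2, Snai1, Snai2, Twist1 and Twist2) were lower in 57SCLC than in 46LCNEC, both in the cells and in the allografts, against 22.2% and 14.2% of all genes, with median log2 differences of -8.26 and -3.46. Zeb2 and Twist2 were at or under the floor in 57SCLC_cell and were tested in the cells only because 46LCNEC was high. Zeb1 averaged 2189 normalized counts in 46LCNEC_cell and 5.76 in 57SCLC_cell. In 57SCLC_allo it averaged 470, and all 6 repressors were higher there than in 57SCLC_cell, against 14.4% of all genes. Fibroblast markers were also higher in these tumors than in the flasks, and the part of host cells in the repressor values was not tested. In Lung, Zeb1 and Zeb2 averaged 6306 and 6444, and the cell types behind these values were not tested. Snai1 was higher than Lung in 46LCNEC_allo (2.11) and lower in 57SCLC_allo (-1.77), while Twist1 was higher than Lung in both (7.68 and 3.77).

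**Figure D4:**
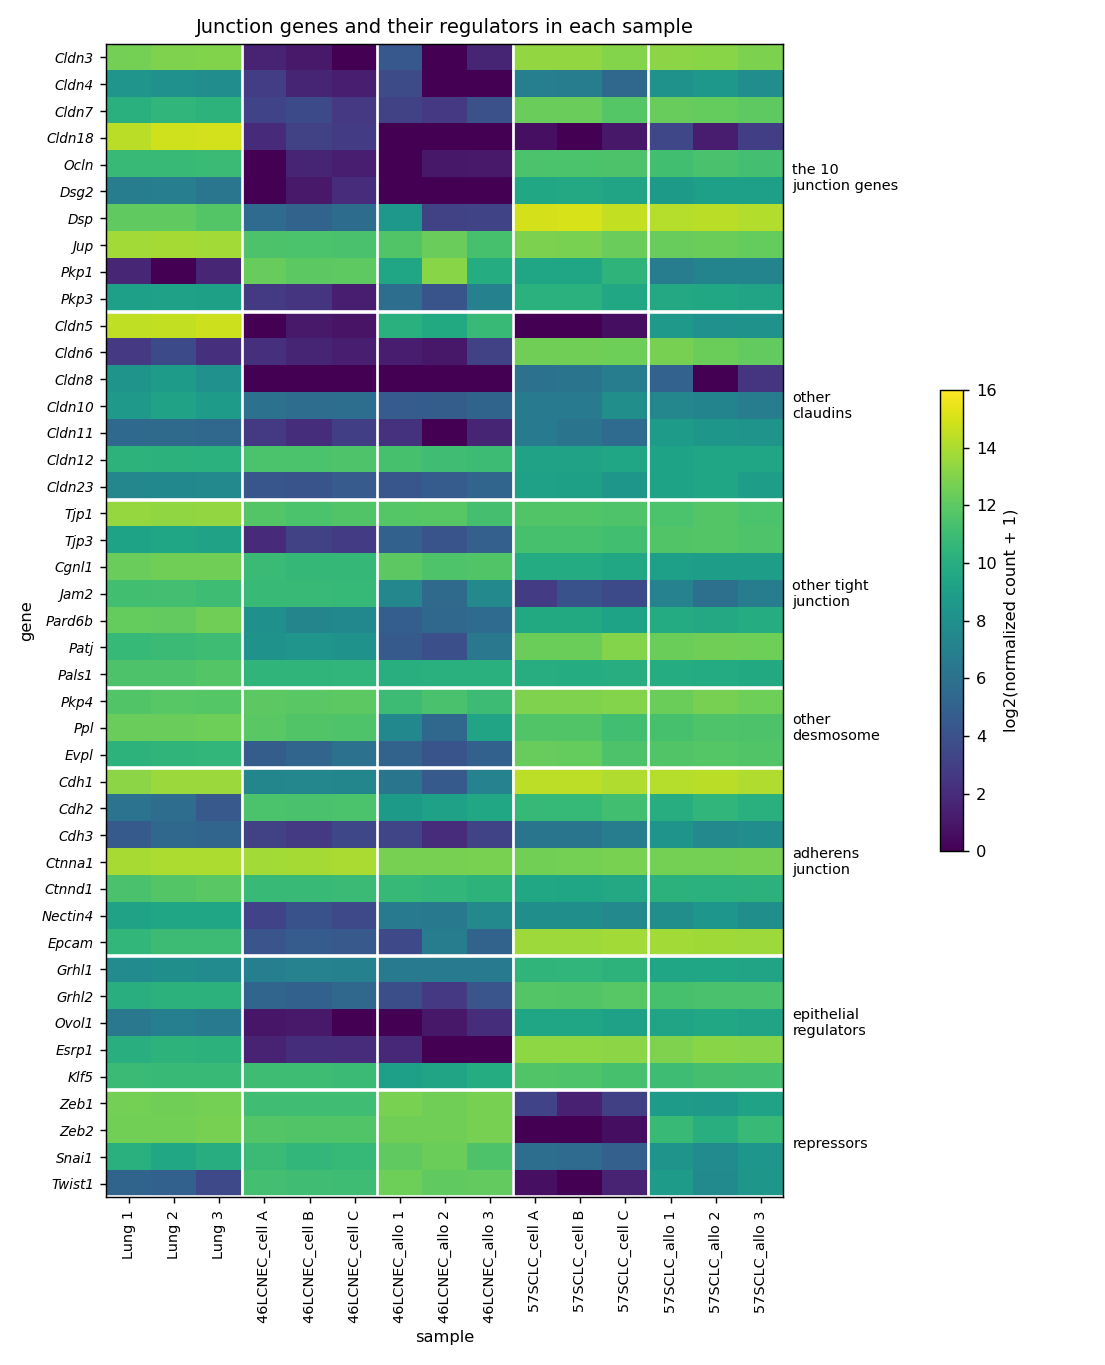
Level, as log2(normalized count + 1), of the 10 junction genes and of the named genes of 6 further lists (rows) in the 15 samples (columns, grouped by 3). The set is low in the 46LCNEC columns apart from Jup and Pkp1, as are Tjp3, Evpl, Epcam, Grhl2, Ovol1 and Esrp1, and the repressors in the bottom rows are lowest in 57SCLC_cell.

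Last, the genes with the most similar pattern were found over the 15 samples, among 13731 genes with a mean of at least 100 normalized counts in some group. The samples fall into groups by line, so Pearson's r describes that division and is given without a test. For Dsp the closest genes were Krt8 (r = 0.988), a keratin of simple epithelia, and Nrxn2 (0.986). For Cldn3 they were Pde8b (0.990) and Ovol2 (0.990), for Cldn7 Bex2 (0.998) and Tmem28 (0.997), for Ocln Map3k21 (0.996) and Dcdc2a (0.996), and for Cldn4 Duox2 (0.958) and Ccdc68 (0.958). Dsg2 was nearest to Tmem30b (0.994) and Evpl (0.993), and Pkp3 to Tbc1d8 (0.992) and Ntn4 (0.989). Cldn18 was nearest to Cryab (0.992) and Podxl (0.991), Jup to Yipf6 (0.981) and Arrdc3 (0.974), and Pkp1 to Psme4 (0.984) and Mapk6 (0.980).

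On build GRCm39 in GENCODE, Cldn3 lies on chromosome 5 from 135015068 to 135016326 (+) and Cldn4 beside it from 134973973 to 134975788 (-). Cldn7 lies on chromosome 11 from 69852648 to 69858711 (+) and Jup on the same chromosome from 100259784 to 100291103 (-). Ocln lies on chromosome 13 from 100630334 to 100689535 (-) and Dsp from 38335230 to 38382553 (+). Cldn18 lies on chromosome 9 from 99571514 to 99599320 (-), Pkp1 on chromosome 1 from 135799133 to 135846945 (-), Pkp3 on chromosome 7 from 140658040 to 140670423 (+) and Dsg2 on chromosome 18 from 20691074 to 20737581 (+). Counts are per gene over all exons. Exons of Cldn3, Cldn7, Ocln, Pkp3, Dsg2 and Dsp overlap, on the opposite strand, those of Wbscr25, Elp5, Gm60854, Gm72182, Gm16090 and Gm10129 in that order. The strand setting of the counting is not given in the sources used here, so reads from these overlaps could belong to either gene. The overlap is widest in Cldn3, at 906 of its 1259 exon bases. It is 331 of 2112 in Cldn7, 317 of 3707 in Pkp3, 539 of 9699 in Dsp, 330 of 9592 in Dsg2 and 167 of 9385 in Ocln.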

How the data were processed

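RNA-seq (poly-A, paired-end) was read in 15 samples. Per the labels and the study's methods, the authors used Rbowtie2 for alignment (build GRCm39) and featureCounts with GENCODE annotation for counting, and deposited a signal for each gene, the count divided by the DESeq2 size factor of the sample. The strand setting and the handling of reads with several matches are not given in the sources used here. Values were whole multiples of 1 read in 100% of cases (tolerance 0.001 reads), and reads were recovered from them. In all, 25369 of 55359 genes were at 0 in every sample.

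Groups were taken from the sample titles. Genes that reached 10 normalized counts in 3 or more samples were compared with limma 3.58.1 (R 4.3.3), with trend, on log2(normalized count + 1), using the 6 samples of each comparison and 12 for the interaction. A call required a 2-fold change and a p, adjusted over all genes tested by Benjamini-Hochberg, no higher than 0.01. Levels per kb used the union of exons in GENCODE, and these exons and the overlaps come from a later release than the one the authors counted with. Alternatives were edgeR 4.0.16 and DESeq2 1.42.0 on recovered reads, scaling by library size, pseudocounts of 0.1 and 5, no filter, all 15 samples in 1 model, leaving out each sample, and the replicate letter as a block. With a sample left out, the filter asked for 2 samples, a choice made after seeing the data, as was leaving out samples from the fold bounds. The fits were tested on simulated data.

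The 10 genes and the gene lists were chosen with earlier results of these data known. The text names every one of the 10 genes and, of each list, the 3 genes with the largest mean in any group and those called in both allografts against Lung, with a few more named as list members. For each of the 10, the 2 most similar genes were sought among genes with a mean of at least 100 normalized counts in some group, leaving out predicted ones. Part of the QKO genotype is not reported here.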

Additional observations from a re-analysis of the deposited data

Results flagged for a closer look

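Pkp3 was singled out because the difference between the lines was itself different in culture and in the animal. The line difference in the allografts minus that in the cells was -3.96 log2 units (95% confidence interval -5.76 to -2.16, adjusted p = 0.0029 in limma's interaction test). The dishes of 46LCNEC_cell had 1.54 to 5.63 normalized counts of Pkp3 and the 46LCNEC_allo tumors 16.8 to 129, while 57SCLC had 769.6 to 1201 in the flasks and 641 to 819 in the tumors.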

How the results depend on the processing

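Of the counts of genes called in the set, those for both lines against Lung and for the lines against each other stayed within 1.5 times their value under every alternative run. Leaving out 1 sample at a time gave 8 to 9 for 46LCNEC_allo against Lung, 6 for 57SCLC_allo, 10 for 46LCNEC_cell and 6 to 7 for 57SCLC_cell, 9 between the lines in culture and 6 to 8 between the allografts. The counts that compare culture and animal were less stable. For 46LCNEC_allo against 46LCNEC_cell the count was 2 with no filter and 0 to 2 with a sample left out, for 57SCLC_allo against 57SCLC_cell it was 0 with all 15 samples in 1 model and 1 to 2 with a sample left out, and for the interaction it was 2 with no filter and 1 to 3 with a sample left out. The share of all genes called moved from 22.8% to 14.9% with no filter and to 15.1% and 14.3% without dish B or C for 46LCNEC_allo against 46LCNEC_cell, and from 17.5% to 10.95% with no filter in the interaction. The causes were not tested. The directions that turned belonged to differences that were not called in the values reported, and the ranges are over samples left out: Cldn4 in 57SCLC_allo against Lung (-0.072 to 0.28 with a sample left out), Dsp in 46LCNEC_allo against 46LCNEC_cell (1.59 in edgeR, -2.26 to 0.49 with a sample left out), Cldn7 in 57SCLC_allo against 57SCLC_cell (-0.16 to 0.13), and in the interaction Ocln (-0.10 with a pseudocount of 5, -0.26 to 0.59 with a sample left out), Dsg2 (-0.27 with a pseudocount of 5, -0.064 to 0.95), Dsp (-1.08 to 1.66) and Cldn7 (-0.35 to 0.30). DESeq2 gave no adjusted p for Dsp in 4 comparisons and for Pkp1 in 2. The letters A to C of dishes and flasks do not pair the samples: deviations from the group means correlated across 16920 genes with r = 0.0916 for A, -0.0837 for B and -0.00619 for C, and the replicate block left 9 genes called. Scaling by library size moved the median log2 difference of all genes to 0.23 between the lines in culture and to 0.28 between the allografts. Each tumor type rests on 1 line, and at 0 to 3 reads the level of a gene in 46LCNEC cannot be told from 0 at this depth.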
